A study of Mus musculus with 6 samples.

Results

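Doublecortin and the microtubule-associated protein (MAP) genes of neurons were followed in embryonic mouse cortical cells after knockdown of Ybx1. The 10 genes were Dcx, Dclk1, Dclk2, Map1a, Map1b, Map2, Map4, Map6, Mapt and Pafah1b1, out of 17920 genes listed. They were chosen by name for microtubule binding in migrating and maturing neurons, with earlier results of these data known. All 10 were detected and passed the filter on low counts, which kept 13669 genes. In KD, Dcx rose to 123% of its WT level, and Map4, Map1a, Mapt, Map6, Map1b and Dclk1 fell to between 79.2% and 86.4%. Pafah1b1, at 112%, missed the threshold in the fit that took the libraries as unpaired and passed it with the replicate number as a block. Dclk2 and Map2, at 103% and 101%, lay closest to the WT level.

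The study asked how loss of Ybx1, an RNA-binding protein that reads 5-methylcytosine in mRNA, alters gene expression in the developing cortex. RNA-seq was performed on 6 libraries, 3 of control cells (WT) and 3 of KD cells. The labels give brain as the tissue, E13.5 (the embryonic day) as the stage, and WT or KD as the genotype. A deletion of Ybx1 is mentioned in the series text. The methods of the study instead describe dissociated E13.5 cortical cells in culture, into which a short hairpin RNA was brought by a lentiviral vector (pLKO.1-Puro) that integrates in the chromosomes. Both groups therefore share the culture, the infection and the selection with puromycin, which uninfected cells do not survive, and WT stands for the control hairpin, not for uninfected tissue. Which of the hairpins against Ybx1 these libraries carried is not stated, and the culture is called neural stem cells in one place and neurons in another. The libraries came from 3 replicate experiments described as independent, but the labels do not say whether a replicate was a separate litter, so p-values measure only the spread between these libraries.

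Microtubules are hollow polymers of tubulin that carry transport along axons and dendrites and pull the nucleus forward as a newborn neuron migrates. MAPs bind along the polymer, stabilise or bundle it and change how the motors dynein and kinesin move on it, and kinases release many of them from it. In the developing cortex doublecortin marks migrating and newborn neurons, and loss of doublecortin or of Lis1, the product of Pafah1b1, disturbs the layering of the human cortex.

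The libraries were alike in depth, with 16294635 to 16497505 estimated counts each. Ybx1 fell from 629 to 116 in normalised counts per 1000000 (CPM), a log2 fold change of -2.43 with edgeR adjusted p = 1.8e-04. Transcripts of Y-linked genes were scarce in both libraries of replicate 2. Eif2s3y was at 3 counts in each against 405 to 693 in the others, and Uty at 8.12 and 23 counts against 152 to 178. Markers of neurons were abundant, with a summed level of 7910 to 8320 transcripts per 1000000 (TPM) in WT over 12 genes, and radial glia markers summed to 3080 to 3460 TPM over 9 genes. Markers of microglia summed to at most 2.2 TPM and those of endothelium to at most 1.51 TPM, with the endothelial gene Cldn5 at 0 counts in 5 libraries.

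Across all genes tested, 24.0% were called by the quasi-likelihood test of edgeR at a Benjamini-Hochberg adjusted p under 0.05, with 12% higher and 11.9% lower in KD. Of the 10 genes, 7 were called, 1 higher and 6 lower. The WT and KD libraries did not overlap in CPM for 9 of the 10, where 41.6% of all genes showed no overlap. The median log2 fold change of the 10 was -0.22, beside -0.001 over all genes tested. All 10 were highly expressed, at percentile 85.9 to 98.8 of listed genes by mean TPM, and small changes are detected more easily at high counts. The share called among genes of like level was not counted. Because RNA was taken from whole cultures, fewer cells of a type and less RNA per cell cannot be told apart.

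**Figure D1:**
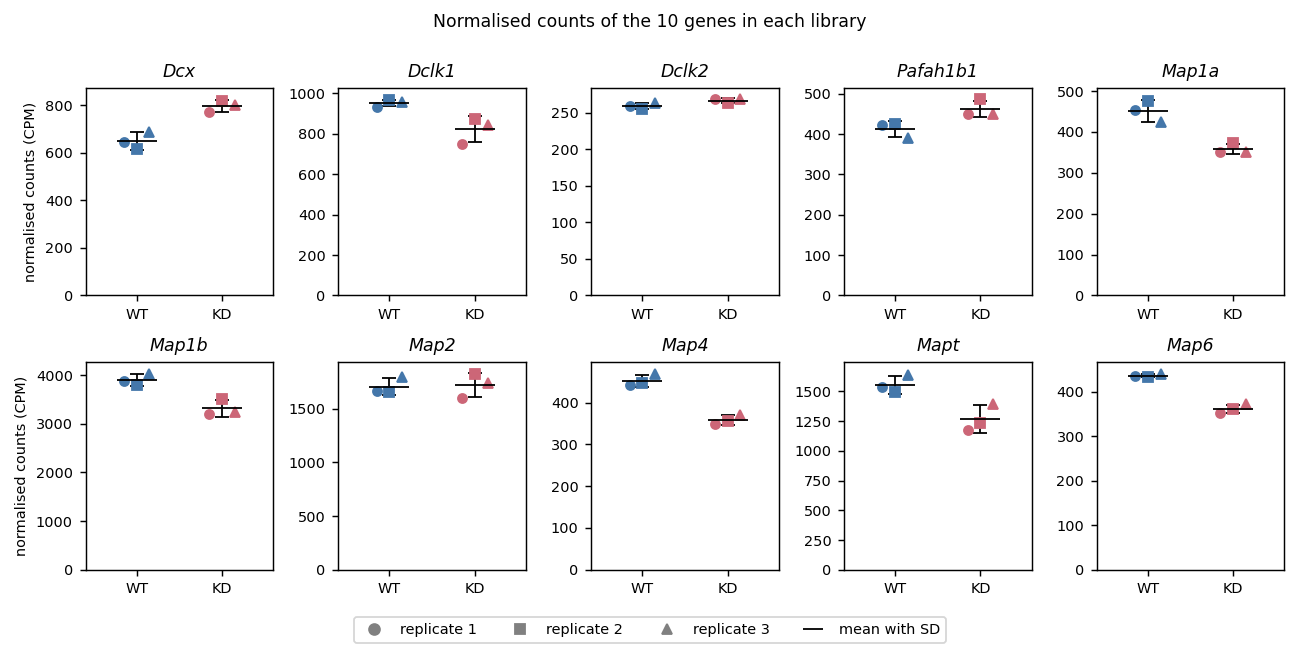
Normalised counts (CPM, each axis from 0) of the 10 genes in the 3 WT (blue) and 3 KD (red) libraries, with circles, squares and triangles for replicates 1, 2 and 3 and black bars for the mean with SD. Only for Map2 do the groups overlap. Dcx lies at 616 to 689 in WT and 769 to 819 in KD, and Map4 at 441 to 468 in WT and 348 to 371 in KD.

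The stretches just before the annotated starts of 3 of the genes are shown for the gene that rose and for the MAP1 pair that fell, with capitals marking 2 motifs searched on both strands. One is ATTGG, read as CCAAT on the other strand, the core of the Y-box after which Ybx1 is named, and the other is the GC box, GGGCGG, read as CCGCCC on the other strand. Sequences are from RefSeq on GRCm38.p6 and run 5′ to 3′ on the strand of the gene. The Dcx stretch lies at chrX:143933397-143933469 (minus strand), that of Map1a at chr2:121289440-121289589 (plus strand) and that of Map1b at chr13:99516603-99516752 (minus strand).
Dcx: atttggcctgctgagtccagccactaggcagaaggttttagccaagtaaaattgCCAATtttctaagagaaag
Map1a: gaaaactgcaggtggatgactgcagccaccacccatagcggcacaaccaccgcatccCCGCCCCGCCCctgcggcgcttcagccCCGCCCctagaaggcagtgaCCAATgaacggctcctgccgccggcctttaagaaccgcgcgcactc
Map1b: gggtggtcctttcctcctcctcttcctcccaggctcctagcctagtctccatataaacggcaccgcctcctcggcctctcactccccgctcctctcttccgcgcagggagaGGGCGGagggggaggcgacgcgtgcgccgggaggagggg

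The Dcx stretch, of 73 bases against 150 for Map1a and Map1b, holds 1 ATTGG motif and no GC box. Of its bases, 42.5% are G or C. The Map1a stretch is 66.7% and the Map1b stretch 68.7% G or C. The neighbouring GC boxes of Map1a share a base. Stretches not shown held 0 motif matches for Dclk1, 0 for Dclk2 and 2 for Map2. Promoter windows of 250 bases before to 50 after the start were matched for 8 of the 10 genes. Some genes have more than 1 window, and these 8 genes have 11 in all. An ATTGG motif stood in 6 of the 11 windows, in those of Dcx, Map1a and Map4 and in 1 of Dclk1, and in 37.4% of 32851 windows over all genes. A GC box stood in 5 of the 11, in those of Map1a, Map1b, Map2 and Dclk2 and in 1 of Map4, and in 35.7% of all windows. These matches describe the letters only.

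The doublecortin family was examined first. Dcx (Entrez Gene 13193, chrX:143855842-143933396, minus strand, GRCm38) encodes doublecortin, which binds between the protofilaments of the microtubule. Its normalised counts were 645, 616 and 689 CPM in WT replicates 1, 2 and 3 and 769, 819 and 802 CPM in KD replicates 1, 2 and 3. Every KD library lay above every WT library. The mean rose from 649.8 ± 36.6 to 797 ± 25.3 CPM (SD, n = 3), equal to a log2 fold change of 0.29 (SE 0.052, 95% interval 0.18 to 0.41) with edgeR adjusted p = 0.00518. Between same-numbered libraries the log2 difference was 0.25, 0.41 and 0.22, largest in replicate 2. Dcx is X-linked, and replicate 2 is also the pair of libraries in which Y-linked transcripts were scarce. Without that pair the log2 fold change was 0.24 with edgeR adjusted p = 0.112, in a fit that called 228 of all genes. With all libraries and the replicate number as a block, edgeR adjusted p was 2.07e-04. The part of the Y-linked difference in the result was not tested.

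Dclk1 and Dclk2 encode doublecortin-like kinases, which join doublecortin domains to a protein kinase domain. Dclk1 (Entrez Gene 13175, chr3:55242303-55539068, plus strand) was at 935, 968 and 955 CPM in WT and at 749.6, 874 and 845 CPM in KD. All KD libraries lay below all WT libraries, with KD replicate 1 the lowest. The mean of Dclk1 fell from 952 ± 16.7 to 823 ± 65.0 CPM, with a log2 fold change of -0.21 (SE 0.059, 95% interval -0.34 to -0.08) with edgeR adjusted p = 0.0312. This call was lost when a single library was left out, with edgeR adjusted p = 0.0591 without KD replicate 1 and 0.0562, 0.107 and 0.0592 without WT replicates 1, 2 and 3. With the replicate number as a block in the fit, edgeR adjusted p was 0.00183. On the TPM scale the log2 fold change was -0.15 with limma adjusted p = 0.0861. Exons of Dclk1 share 27 and 87 bases with Gm21954 and Gm42609 on the opposite strand, and whether reads were counted by strand is not stated.

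Dclk2 (Entrez Gene 70762, chr3:86786150-86920952, minus strand) was at 259, 255 and 262 CPM in WT and at 268, 262 and 268 CPM in KD. The groups touched without overlapping, with WT replicate 3 and KD replicate 2 side by side. The log2 fold change was 0.04 (SE 0.041, 95% interval -0.05 to 0.13) with edgeR adjusted p = 0.499. Within this family, then, Dcx rose, Dclk1 fell and Dclk2 did not pass the threshold.

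The relative levels of these genes within a library were compared per transcript length, since a ratio of TPM within a library does not depend on the scaling between libraries. The ratio of Dclk1 to Dcx was 1.8, 1.96 and 1.73 in WT and 1.23, 1.34 and 1.32 in KD. No KD library reached the WT range, and the mean log2 ratio was lower by 0.50 in KD (log2 difference -0.5, two-sided exact permutation p = 0.1, Benjamini-Hochberg adjusted p = 0.15 over 6 ratios). With 3 libraries against 3, p = 0.1 is the smallest that the exact test allows. The ratio of Dclk2 to Dclk1 went from 0.466, 0.435 and 0.456 in WT to 0.585, 0.492 and 0.527 in KD, a log2 difference of 0.24 with exact p = 0.1 and adjusted p = 0.15.

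Pafah1b1 (Entrez Gene 18472, chr11:74673949-74724384, minus strand) encodes Lis1, which binds dynein and governs nuclear movement in migrating neurons. It was at 421, 426 and 390.3 CPM in WT and at 451, 486 and 450.2 CPM in KD. The KD libraries all lay above the WT libraries. The means were 413 ± 19.4 and 462 ± 20.6 CPM, equal to a log2 fold change of 0.16 (SE 0.053, 95% interval 0.05 to 0.28) with edgeR adjusted p = 0.0509, which missed the threshold of 0.05. With the replicate number as a block in the fit, the log2 fold change was 0.16 with edgeR adjusted p = 0.00945, past the threshold. That fit called 36.6% of all genes and 8 of the 10 here, 2 higher and 6 lower.

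**Figure D2:**
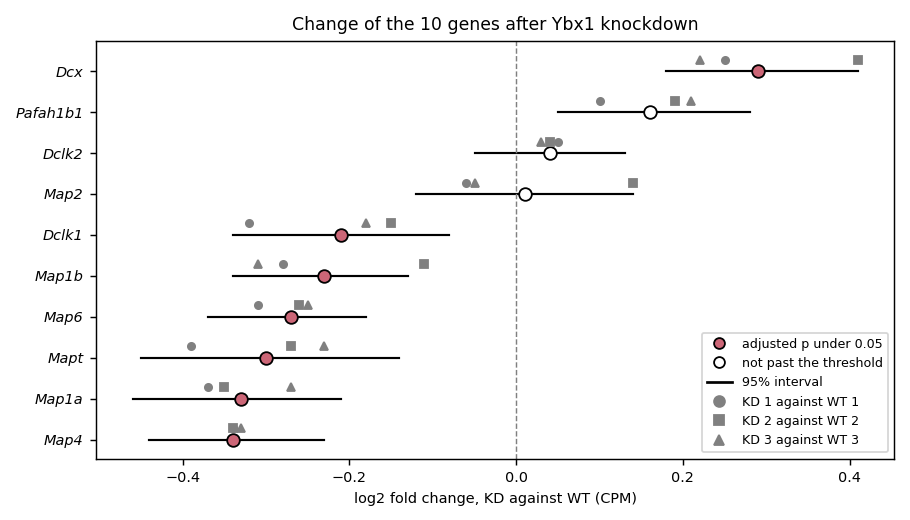
Log2 fold change of each gene in KD against WT (large circles, filled where edgeR adjusted p is under 0.05) with its 95% interval, and the log2 difference of each same-numbered pair of libraries as small grey symbols. Dcx stands at 0.29 and Pafah1b1 at 0.16 on the higher side, and the 6 filled circles from Dclk1 at -0.21 to Map4 at -0.34 lie below 0 with all 3 of their pairs.

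The MAP1 genes encode large precursors that are cut into a heavy and a light chain. Map1b is prominent in growing axons of young neurons, and Map1a in dendrites of mature ones. Map1a (Entrez Gene 17754, chr2:121289590-121310832, plus strand) was at 454, 476 and 423 CPM in WT and at 351, 373 and 352 CPM in KD. The lowest WT library, replicate 3, was still above every KD library. Map1a fell from 451 ± 26.5 to 358 ± 12.7 CPM, equal to a log2 fold change of -0.33 (SE 0.054, 95% interval -0.46 to -0.21) with edgeR adjusted p = 0.00388. Its exons share 272 bases with Ppip5k1 on the opposite strand, a gene listed at 541 to 576 counts a library, and its estimated count was fractional in 1 library.

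Map1b (Entrez Gene 17755, chr13:99421464-99516602, minus strand) had the highest counts of the 10. It was at 3880.1, 3799.6 and 4027 CPM in WT and at 3193, 3509.6 and 3249 CPM in KD. The groups stood apart, with KD replicate 2 nearest to WT. Map1b fell from 3902 ± 115 to 3317 ± 169 CPM, equal to a log2 fold change of -0.23 (SE 0.047, 95% interval -0.34 to -0.13) with edgeR adjusted p = 0.009. The pairs gave log2 differences of -0.28, -0.11 and -0.31. The ratio of Map1a to Map1b in TPM was 0.115 to 0.136 in WT and 0.116 to 0.12 in KD, a log2 difference of -0.09 (exact p = 0.4, adjusted p = 0.48), so the fall of the one relative to the other was within the spread between libraries.

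Map2, tau and Map4 share related microtubule-binding repeats. Map2 is the classical dendritic MAP, tau, encoded by Mapt, is enriched in axons, and Map4 is found in many cell types, dividing cells included. Map2 (Entrez Gene 17756, chr1:66175202-66442583, plus strand) was at 1660.3, 1652 and 1795 CPM in WT and at 1594, 1818 and 1738 CPM in KD. The groups overlapped fully, with the lowest and the highest library both in KD. The means were 1703 ± 80.5 and 1717 ± 113 CPM, equal to a log2 fold change of 0.01 (SE 0.058, 95% interval -0.12 to 0.14) with edgeR adjusted p = 0.901. The interval leaves room for a small change in either direction. Estimated counts of Map2 were fractional in 3 libraries, and its exons share 124 bases with Gm10558 on the opposite strand.

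Map4 (Entrez Gene 17758, chr9:109929841-110083954, plus strand) was at 441, 448 and 468 CPM in WT and at 348, 355 and 371 CPM in KD. A wide gap separated the groups. Map4 fell from 452 ± 13.9 to 358 ± 11.9 CPM, equal to a log2 fold change of -0.34 (SE 0.046, 95% interval -0.44 to -0.23) with edgeR adjusted p = 0.00188. The pairs differed by -0.34, -0.34 and -0.33, the most even of the 10 genes beside Dclk2. Estimated counts were fractional in 2 libraries.

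Mapt (Entrez Gene 17762, chr11:104229409-104332090, plus strand) was at 1538, 1492 and 1639.6 CPM in WT and at 1172, 1235 and 1396 CPM in KD. None of the KD libraries reached the WT range, with KD replicate 3 nearest to it. Mapt fell from 1556 ± 75.6 to 1267 ± 115 CPM, equal to a log2 fold change of -0.30 (SE 0.067, 95% interval -0.45 to -0.14) with edgeR adjusted p = 0.0147. Leaving out KD replicate 2 gave -0.28 with edgeR adjusted p = 0.0591, past the threshold no longer. The replicate block gave edgeR adjusted p = 9.5e-05 with all 6 libraries.

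The balance of the 3 related genes was compared as ratios of TPM. The ratio of Map2 to Map4 was 2.4, 2.34 and 2.43 in WT and 3.04, 3.25 and 3.02 in KD, a log2 difference of 0.38 (exact p = 0.1, adjusted p = 0.15). The ratio of Map2 to Mapt was 0.714, 0.749 and 0.716 in WT and 0.931, 0.977 and 0.826 in KD, a log2 difference of 0.32 (exact p = 0.1, adjusted p = 0.15). In both ratios the KD libraries lay above all WT libraries. The ratio of Mapt to Map4 overlapped between groups, at 3.13 to 3.4 in WT and 3.27 to 3.66 in KD, with a log2 difference of 0.05 (exact p = 0.6, adjusted p = 0.6).

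**Figure D3:**
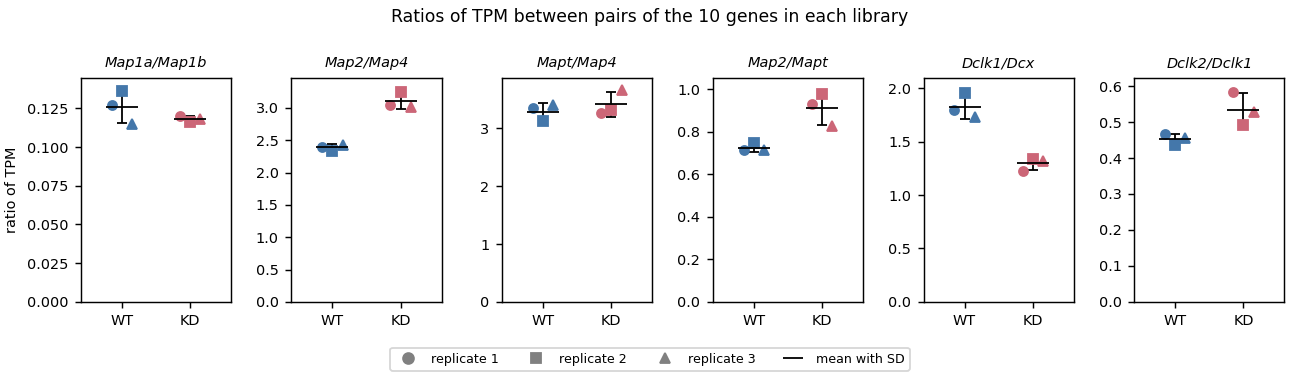
Ratios of TPM between 6 pairs of the genes in each WT (blue) and KD (red) library, with symbols for replicates and black bars for the mean with SD, each axis from 0. Map2/Map4 (2.34 to 2.43 in WT, 3.02 to 3.25 in KD), Map2/Mapt, Dclk1/Dcx and Dclk2/Dclk1 do not overlap between groups, whereas Map1a/Map1b and Mapt/Map4 do.

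Map6 (Entrez Gene 17760, chr7:99266779-99337137, plus strand) encodes the stable tubule only polypeptide, which protects microtubules against cold. It was at 436, 433 and 440.4 CPM in WT and at 352, 361 and 371 CPM in KD. The WT libraries were close together and far above KD. Map6 fell from 436 ± 3.92 to 361 ± 9.83 CPM, equal to a log2 fold change of -0.27 (SE 0.042, 95% interval -0.37 to -0.18) with edgeR adjusted p = 0.00292.

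Without both libraries of replicate 2, edgeR called 0 of the 10 genes, in a fit that left 2 libraries a group and called 228 of all genes. At an unadjusted edgeR p under 0.05 that fit held 1 of the 10 genes higher and 6 lower. Among 91 partner genes, described below, it held 9 higher and 15 lower. The share of all genes at that threshold was not counted, so these counts have no background beside them. Adjusted p was 0.0679 for Map1a, 0.054 for Map1b, 0.0681 for Map4, 0.0792 for Map6, 0.133 for Mapt, 0.135 for Dclk1 and 0.244 for Pafah1b1, and the log2 fold changes of the 6 lower genes were between -0.34 and -0.25. All 10 genes were among the longer transcripts, in the upper 2 of 5 equal bins of effective length, where the median log2 fold change over all genes was 0.017 and 0.042. Correcting for length moved no call among the 10 in the unpaired fit.

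Compared per transcript length, Map1b stood highest of the 10, at 644.9 to 700.8 TPM in WT and 567 to 631 TPM in KD. Mapt came next at 623 to 699 TPM in WT and 515 to 603 TPM in KD, below Map1b in 5 of 6 libraries, with overlapping ranges in both groups. Map2, at 466 to 500.4 TPM in WT and 479.7 to 531 TPM in KD, was below Mapt in every library, though their ranges overlapped in KD. Dclk1 followed at 264 to 274 TPM in WT and 225 to 261 TPM in KD, apart from its neighbours in both groups.

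The middle of the order differed between groups. In WT it ran Map6 (221 to 226 TPM), Map4 (195 to 206 TPM), then Pafah1b1 (150.3 to 160.1 TPM) and Dcx (139 to 159 TPM), whose ranges overlapped. In KD Map4, at 158 to 165 TPM, was below Pafah1b1 (174 to 194 TPM) and Dcx (183 to 195 TPM), which again overlapped each other and also Map6 (185 to 190.3 TPM). Dcx held rank 8, 8 and 7 in WT and rank 6, 5 and 6 in KD, and Map4 rank 6 in all WT and rank 8 in all KD libraries. Dclk2, at 119 to 125 TPM in WT and 128 to 132 TPM in KD, and Map1a, at 80.5 to 88.0 TPM in WT and 66.8 to 73.3 TPM in KD, were the lowest in all 6 libraries. Even Map1a exceeded 85.9% of all listed genes. Summed over the 10, the level was 2930 to 3120 TPM in WT and 2700 to 2910 TPM in KD.

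**Figure D4:**
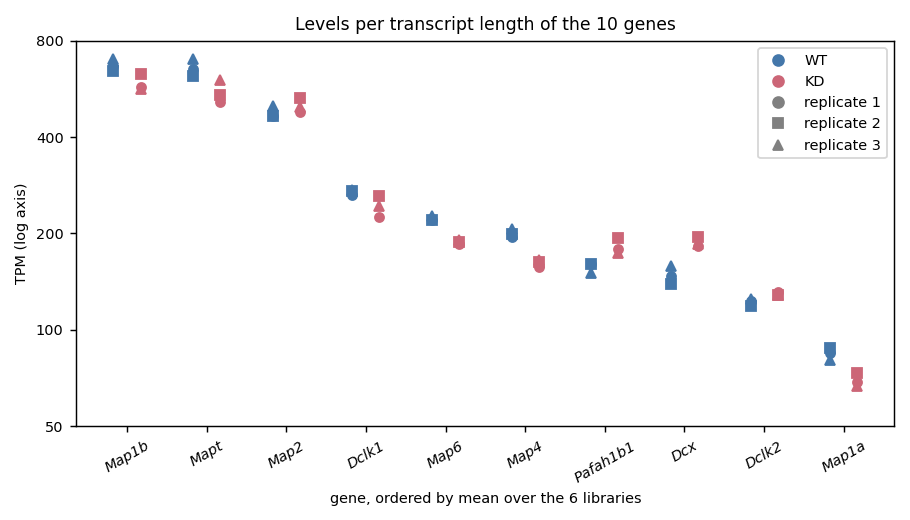
TPM (log axis) of the 10 genes, ordered by their mean over the 6 libraries, in WT (blue) and KD (red) with symbols for replicates. Map1b (mean 630.6), Mapt (606) and Map2 (490.3) form the top and Map1a (77.0) the bottom, and the order of Map4, Pafah1b1 and Dcx in WT turns in KD.

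The genes whose pattern over the 6 libraries was most like that of Dcx were sought by the root mean square difference of log2 CPM after centring each gene, among 11438 genes. Cdk17, a kinase gene of the cyclin-dependent family, was closest at 0.019, followed by Usp6nl at 0.020 and B3galnt2 at 0.025, with estimated counts of Usp6nl fractional in 3 libraries and of B3galnt2 in 6. Cdk17 was at 93.0, 87.0 and 101 CPM in WT and at 111, 117 and 114 CPM in KD. Among the other 9 genes, Pafah1b1 came closest to Dcx at 0.11, then Dclk2 at 0.136 and Map2 at 0.146, all farther than these. These likenesses are descriptions over 6 libraries and carry no test.

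Other genes of the same pathways were taken from 6 lists of 92 genes, of which 91 were tested. Of these, 9 were higher and 15 lower, 26.4%, near the 24.0% of all genes. Among 9 tested relatives of doublecortin and the MAPs, 1 was higher and 1 lower (1 and 2 with the replicate block), with a median log2 fold change of -0.12. Map7, which recruits kinesin to microtubules, rose from 6.36 to 8.16 CPM in WT to 9.82 to 13.0 CPM in KD, equal to a log2 fold change of 0.60 with edgeR adjusted p = 0.0196. Adjusted p passed 0.05 when KD replicate 1 was left out, to 0.0586, and when WT replicate 2 was, to 0.0767. With the replicate block edgeR adjusted p for Map7 was 0.00229. Map9, a protein of the mitotic spindle, had -0.16 with edgeR adjusted p = 0.0393, which rose above 0.05 when any of the 6 libraries was left out, to between 0.0505 and 0.123.

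The partners of Lis1 came next. Of 23 genes of Lis1 and the dynein motor, 1 was higher and 3 were lower (3 and 5 with the replicate block), and the median was -0.01. The dynein light chain gene Dynlt3 was at 54.0, 59.3 and 54.7 CPM in WT and at 28.3, 29.0 and 34.5 CPM in KD, equal to a log2 fold change of -0.87 with edgeR adjusted p = 4.8e-04. Dctn1, the largest subunit of the dynein cofactor dynactin, had -0.28 with edgeR adjusted p = 0.0028. Ywhae, which encodes the 14-3-3 protein that binds the Lis1 partner Ndel1, was higher, at 1364 to 1374 CPM in WT and 1594 to 1625 CPM in KD, with 0.23 and edgeR adjusted p = 0.00326. The cargo adaptor gene Bicd2 was the remaining call, with -0.21 (edgeR adjusted p = 0.00905).

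Of 17 genes for kinases that act on MAPs and their activators, 1 was higher and 4 were lower (2 and 5 with the replicate block), with a median of -0.04. Cdk5r2, an activator of the neuronal kinase Cdk5, which phosphorylates doublecortin and tau, was at 115, 119 and 118 CPM in WT and at 75.9, 81.5 and 97.8 CPM in KD. Its log2 fold change was -0.46 with edgeR adjusted p = 0.00618. The Cdk5 activator gene Cdk5r1 went the other way, at 388 to 400 CPM in WT and 425 to 440 CPM in KD. Cdk5r1 had a log2 fold change of 0.12 with edgeR adjusted p = 0.0575, and 0.0348 with the replicate block. Of the Jun kinases, which phosphorylate doublecortin and MAPs, Mapk9 was higher (0.35, edgeR adjusted p = 0.00174) and Mapk8 lower (-0.22, edgeR adjusted p = 0.0189, and 0.0689 without WT replicate 2). Cdk5 itself had -0.21 (edgeR adjusted p = 0.0284, and 0.0805 to 0.106 without KD replicate 1, KD replicate 2 or WT replicate 2). Brsk1, a kinase of neuronal polarity with fractional counts in all 6 libraries, had -0.22 (edgeR adjusted p = 0.0126, and 0.0558 without WT replicate 2).

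Of 24 genes for proteins of microtubule ends, crosslinking and severing, 3 were higher and 2 lower (3 and 3 with the replicate block). Their median was -0.01. Nav3, a neuron navigator that rides on plus ends, was at 75.0 to 85.9 CPM in WT and 127 to 146 CPM in KD, equal to a log2 fold change of 0.77 with edgeR adjusted p = 4.0e-04. Camsap3, which caps minus ends, was lower (-0.25, edgeR adjusted p = 0.00697), and Clip1, a plus end linker, was higher (0.23, edgeR adjusted p = 0.0104). The plus end genes Clasp1 (0.16, edgeR adjusted p = 0.0453) and Mapre1 (-0.17, edgeR adjusted p = 0.02) each lost their call without KD replicate 1, KD replicate 2, WT replicate 1 or WT replicate 2, at 0.11 to 0.152 and 0.0508 to 0.0675. The 5 collapsin response mediator genes, which bind tubulin in growing axons, had a median of -0.21, with 0 higher and 3 lower.

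Within that list Dpysl4 had a log2 fold change of -0.50 (edgeR adjusted p = 6.4e-04). Crmp1 had -0.32 (edgeR adjusted p = 0.013, 0.053 without WT replicate 2 and 2.8e-05 with the replicate block). Dpysl3 had -0.21 with edgeR adjusted p = 0.0377, which was 0.0861 and 0.0931 without KD replicates 1 and 2, and 0.0989 and 0.0948 without WT replicates 2 and 3. None of the 5 was higher at an edgeR adjusted or unadjusted p under 0.05, and the replicate block gave 0 higher and 4 lower.

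Of 13 genes of tubulin modification, 3 were higher and 2 lower (4 and 3 with the replicate block), with a median of 0.01. Removal of the last tyrosine of α-tubulin by vasohibins needs the small protein Svbp, and the tubulin tyrosine ligase Ttl puts the tyrosine back. Among the list's other members the vasohibin genes did not pass the test, Vash1 with 0.03 (edgeR adjusted p = 0.706) and Vash2 with -0.01 (edgeR adjusted p = 0.927). Svbp was at 12.9, 12.1 and 14.7 CPM in WT and at 26.8, 26.4 and 27.7 CPM in KD, equal to a log2 fold change of 1.03 with edgeR adjusted p = 3.7e-04. Ttl went the other way, from 100.3, 108 and 104 CPM to 60.0, 64.4 and 74.3 CPM, equal to a log2 fold change of -0.65 with edgeR adjusted p = 0.00105. Sirt2, a deacetylase of α-tubulin, rose with 0.56 (edgeR adjusted p = 0.00137). Hdac6, also a deacetylase of α-tubulin, did not pass the test, with -0.06 (edgeR adjusted p = 0.411). Of the enzymes that add groups to tubulin, the polyglutamylase gene Ttll1 was higher (0.47, edgeR adjusted p = 0.00107) and the acetyltransferase gene Atat1 lower (-0.22, edgeR adjusted p = 0.00839, fractional counts in 3 libraries).

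**Figure D5:**
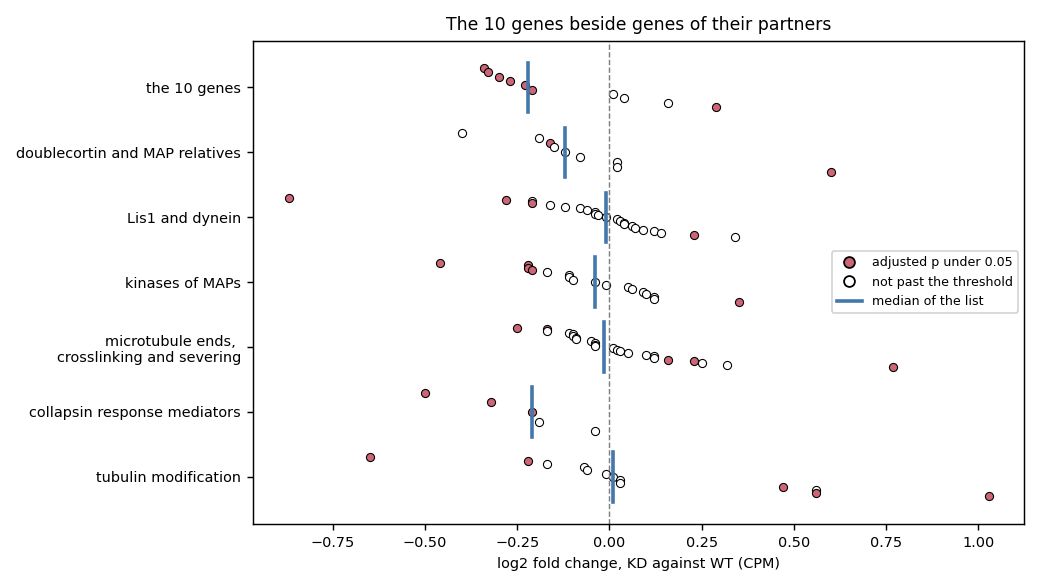
Log2 fold change in KD against WT of the 10 genes and of the genes of 6 partner lists, 1 circle a gene, filled where edgeR adjusted p is under 0.05, with a blue bar at the median of each list. The median is -0.22 for the 10 genes and -0.21 for the collapsin response mediators and lies between -0.12 and 0.01 for the other lists, in which the largest changes are Svbp at 1.03 and Dynlt3 at -0.87.

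Some markers of cell types also differed between the groups, where 24.0% of all genes were called, and 36.6% with the replicate block. Of 12 neuron markers, 1 was higher and 4 were lower, with a median log2 fold change of -0.13, and their summed level was 7910 to 8320 TPM in WT and 7050 to 7870 TPM in KD. Syt1, a synaptic vesicle gene, had -0.36 (edgeR adjusted p = 0.0101, 0.0503 without WT replicate 2 and 6.4e-05 with the replicate block). Gap43, a growth cone gene, had -0.27 (edgeR adjusted p = 0.0149, and 0.0505 without WT replicate 2 and 0.0601 without KD replicate 2). Stmn3 had -0.25 (edgeR adjusted p = 0.0145, and 0.0658 without WT replicate 2), and Stmn2 had -0.20 (edgeR adjusted p = 0.0466, and 0.0682 to 0.147 when any library but KD replicate 3 was left out). The neurofilament gene Nefm was the one called higher, with 0.17 (edgeR adjusted p = 0.0436, and 0.0543 to 0.134 when any library was left out). The neuronal tubulin gene Tubb3 overlapped between groups with -0.06 (edgeR adjusted p = 0.699). Without WT replicate 2, 0 neuron markers were called lower by edgeR, and without KD replicate 2 there were 2.

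On the progenitor side, 2 of 9 radial glia markers were higher and 0 lower, 22.2% beside 24.0% of all genes, with a median of 0.21. Their sum was 3080 to 3460 TPM in WT and 3510 to 3800 TPM in KD. Fabp7 alone gave 2368 to 2705 TPM in WT and 2728 to 2842 TPM in KD, with a log2 fold change of 0.04 (edgeR adjusted p = 0.601). On log2(TPM + 1) the median log2 fold change over all genes was 0.046. With the replicate block 5 of the 9 were higher, in a fit that called 36.6% of all genes. Sox2 (edgeR adjusted p = 0.0118), Vim (edgeR adjusted p = 0.0109) and Notch1 (edgeR adjusted p = 0.0139) were added there. Pax6 had 0.61 (edgeR adjusted p = 0.0185, and 0.0738 without WT replicate 2), with fractional counts in all 6 libraries, and Hes1 had 0.49 (edgeR adjusted p = 0.0445, and 0.0687 to 0.127 when any library but KD replicate 1 was left out). Of 5 intermediate progenitor markers, 4 were higher, with a median of 1.42, among them Neurog2 (1.58, edgeR adjusted p = 9.0e-04), Eomes (1.57, edgeR adjusted p = 0.00813) and Insm1 (1.42, edgeR adjusted p = 7.0e-04), and their sum was 63.4 to 86.1 TPM in WT and 133 to 156 TPM in KD. Btg2 had 0.31 (edgeR adjusted p = 0.0473, and 0.0653 to 0.133 when any library but WT replicate 3 was left out). The part of these cell types in the changes of Dcx and the MAP genes was not tested.

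Of 6 interneuron markers 1 was higher, 16.7% beside 24.0% of all genes, namely Dlx2 with 1.23 (edgeR adjusted p = 9.6e-04). The median was 0.14, and the sum was 458 to 677 TPM in WT and 493 to 758 TPM in KD. With the replicate block Dlx1 was also higher (edgeR adjusted p = 1.1e-04) and Gad1 lower (edgeR adjusted p = 0.00165). Of 5 oligodendrocyte lineage markers 2 were lower, Olig1 and Cspg4, each with -0.54 (edgeR adjusted p = 0.0105 and 0.00994). The median of this list was -0.44, and the sum was 306 to 413 TPM in WT and 263 to 331 TPM in KD. With the replicate block 4 of the 5 were lower, in a fit that called 36.6% of all genes. Olig2 (edgeR adjusted p = 0.0192) and Sox10 (edgeR adjusted p = 0.00376) were added there. The part of this lineage in the changes of Dcx and the MAP genes was not tested. Of 4 tested astrocyte markers edgeR called 0, at an unadjusted p under 0.05 as well, and the sum was 193 to 230 TPM in WT and 220 to 245 TPM in KD.

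Of 5 meningeal and mural markers 3 were tested and 1 was higher, Pdgfrb with 0.72 (edgeR adjusted p = 0.0318, and 0.0515 to 0.115 when any library but WT replicate 3 was left out), in a sum of 4.39 to 8.68 TPM in WT and 5.79 to 8.97 TPM in KD. None of 6 microglia markers passed the filter, with sums of 1.33 to 2.2 TPM in WT and 1.55 to 2.07 TPM in KD. Of 5 endothelial markers 2 passed, of which edgeR called 0, with 0 at an unadjusted p under 0.05 as well, with sums of 0.97 to 1.5 TPM in WT and 0.87 to 1.51 TPM in KD.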

How the data were processed

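RNA of 6 libraries was sequenced by the authors on the DNBSEQ platform after mRNA purification. The submitters' processing notes name HISAT2 2.2.1, Bowtie2 2.4.5 and RSEM 1.3.1 and the builds GRCm38 and mm10, and the annotation is not given in the sources used here. The deposited table gives for each gene an estimated count with 2 decimals, of which 89.3% to 89.9% were whole numbers in a library, and a fractional estimated count arises where reads are divided between genes that share sequence. The TPM values, also deposited by the authors, divide by transcript length and sum to 1000000 per library. The 6 FPKM columns and 6 columns of group averages deposited by the authors were not used. Sample titles gave the group and replicate number, and the columns named Ctrl were matched to the WT titles by number.

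Estimated counts were rounded to whole numbers, since the design had assumed counts, and tested with edgeR 4.0.16 (R 4.3.3) by the quasi-likelihood F-test after TMM scaling and filterByExpr with a minimum count of 10, with Benjamini-Hochberg adjustment over the 13669 genes tested and a threshold of 0.05. CPM are counts per 1000000 of TMM-scaled library size, SE is the absolute log2 fold change over the square root of F, and intervals use the t distribution with the degrees of freedom of that test. Ratios of TPM were compared by a two-sided exact permutation test. Scripts were tested on simulated data. Replicates differed by a chi-square of 4.43 to 8.66 per degree of freedom, beyond sampling noise. The between-library coefficient of variation was 7.7%, and 4.7% with the replicate block. Counting error was small beside it for the 10 genes, but not for genes with few counts such as Map7, at 103 to 216 a library.

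Deviations of same-numbered libraries from their group means correlated over genes at 0.35, 0.32 and 0.18, and others at -0.28 to -0.02, so the numbers pair the libraries. What a number stands for is not labelled, and the series text mentions batches of sequencing over biological replicates. The replicate number was therefore also entered as a block, beside the unpaired fit. The fits that left out libraries had no block.

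Alternatives were other scalings and filters, DESeq2 1.42.0, limma 3.58.1 (voom, and trend on log2(TPM + 1) or log2(TPM + 0.1)), an offset for transcript length, the block, stricter thresholds, leaving out each library, and leaving out both libraries of replicate 2. The 10 genes, the 6 partner lists (relatives of doublecortin and the MAPs, Lis1 and dynein, kinases of MAPs, microtubule ends, collapsin response mediators, tubulin modification) and the 9 marker lists were chosen with earlier results of these data known. Beyond the 10 genes and Ybx1, the text names of each partner list up to 3 called genes with the largest change, a mean of at least 5 TPM and no overlap between groups, up to 2 called markers a list, and the 3 genes most like Dcx among those with at least 5 CPM. Tubb3, Fabp7, Vash1, Vash2, Cdk5r1, Hdac6, Cldn5, Eif2s3y, Uty, the remaining called genes of the lists and the markers added by the block were named after their values were seen. Coordinates and promoter windows are those of RefSeq on GRCm38, and exon overlaps those of GENCODE M21.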

Additional observations from a re-analysis of the deposited data

How the results depend on the processing

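Of the 10 genes, edgeR called 1 higher and 6 lower. The count of higher genes was 2 with the replicate block, with the length offset and replicate block, with DESeq2, with limma-voom, with limma-trend on log2(TPM + 1) or log2(TPM + 0.1) and with total counts only, Pafah1b1 being the added gene, and the block changed no other call among the 10. On either TPM scale 5 genes were lower. There were 4 lower at an adjusted p under 0.01 and 4 with a fold of at least 1.2. Leaving out 1 library gave 5 lower, except without KD replicate 3, which gave 6. Without both libraries of replicate 2 edgeR called 0 higher and 0 lower. At an unadjusted p under 0.05 there were 1 and 6, with the share of all genes not counted. This fit has fewer libraries. Map2 turned from 0.01 to -0.03 with the length offset, -0.04 with the length offset and replicate block, -0.05 without both libraries of replicate 2 and -0.01 with upper quartile scaling, and ranged from -0.03 to 0.06 over the fits that left out 1 library. It passed the threshold in none of these.

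Of the 91 partner genes tested, 9 were higher and 15 lower. The replicate block gave 13 and 22, and together with the length offset 16 and 29. Without both libraries of replicate 2 there were 2 and 2. The count of lower genes was 9 on either TPM scale, 8 at an adjusted p under 0.01, 6 with a fold of at least 1.2, and 8 to 16 when 1 library was left out, 8 of these without WT replicate 2. The cause of these moves was not tested.

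Over all genes, 3277 were called, 5009 with the block, 1576 without WT replicate 2, 1733 without KD replicate 2, 2175 without KD replicate 1 and 228 without both libraries of replicate 2. Higher genes were 50.2% of those called, 43.0% with upper quartile scaling, 57.9% with total counts only and about 66% on the TPM scale.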
